A study of Mus musculus with 18 samples.

Results

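Glycogen metabolism in liver was followed through 9 genes of its synthesis, breakdown and phosphatase targeting, chosen by name as Gys2, Pygl, Gbe1, Gyg, Ugp2, Ppp1r3b, Ppp1r3c, Ppp1r3g and Phka2. They are 9 of the 52230 genes measured, and all 9 were among the 10938 genes tested, which had at least 10 counts in at least 4 libraries. The data were RNA-sequencing libraries of whole liver from 18 mice on standard rodent chow, 1 library per mouse. PP mice carried the wild-type proline form of GKRP, the glucokinase regulatory protein encoded by Gckr, and LL mice a germline knock-in of the leucine form, both on the B6N strain named in the title of the series. The males comprised 4 PP and 4 LL mice and the females 5 of each genotype. The labels give ages of 9, 12, 14 and 14 weeks for male PP mice 1 to 4, and of 13, 13, 13 and 14 weeks for male LL mice 1 to 4. Female PP mice 1 to 5 were 9, 9, 11, 12 and 14 weeks old and female LL mice 1 to 5 were 11, 11, 13, 13 and 14 weeks old by the labels, whereas the design text gives 14 weeks for all mice. The knock-in is present in every cell that expresses Gckr, not only in hepatocytes, and food was freely available in housing, although whether it was withdrawn before the livers were taken is not stated for these mice.

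Liver stores glucose as glycogen after a meal and releases it between meals. Glucokinase, which GKRP holds inactive in the nucleus, makes glucose 6-phosphate, the starting point of glycogen synthesis. Glycogen synthase and glycogen phosphorylase then run in opposite directions, both switched by phosphorylation, and protein phosphatase 1 is brought to the glycogen particle by a family of targeting subunits.

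The question was whether liver mRNA of the glycogen genes differed by the LL form of GKRP in either sex. Total estimated counts ran from 3794671 to 6613905 per library, and values below are counts normalized for library size by DESeq2. A gene counts as called where its adjusted P in DESeq2 was below 0.05 and its fold was 1.3 or more, or 0.7 or less. The adjustment covered only the genes kept by the independent filtering of DESeq2. These were 3301 of the 10938 tested by LL genotype in males, 8598 in females and 1606 for the interaction of genotype and sex. In either comparison between the sexes 10930 were kept. A gene set aside had no adjusted P and could not be called. Normalized counts of Gckr itself averaged 518 ± 82.2 (SD) for male PP, 478 ± 24.6 for male LL, 611 ± 114 for female PP and 592 ± 60.6 for female LL mice, which does not identify the genotype because the knock-in changes a codon. The tissue label was checked on 5 hepatocyte markers (Alb, Ttr, Apoa1, Cps1 and Glul), whose summed level was at least 367785 normalized counts in every mouse. The muscle markers Ckm, Acta1 and Myh4 and the adipocyte marker Adipoq were at 0 in all 18 libraries. The other adipocyte marker, Plin1, had 0.798 and 0.909 normalized counts in female PP mice 1 and 2 and 0.91 in female LL mouse 1, and was at 0 elsewhere. Libraries also differed in fragment length, from 369 to 631 bases in female PP and from 247 to 377 bases in female LL mice. In males it was 396 to 630 bases in PP and 203 to 582 bases in LL mice.

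By LL genotype in males 0 of the 9 glycogen genes were called, where 0.283% of all genes tested were. Only 5 of the 9 had an adjusted P there, as Gyg, Phka2, Ppp1r3c and Ppp1r3g were set aside and could not be called. By LL genotype in females 0 of 9 were called, against 0.658% of all genes. There 7 of the 9 had an adjusted P, and Gyg and Ppp1r3g had none. An unadjusted p below 0.05 was reached by 1 of the 9 in males and 0 in females with DESeq2, and by 1 and 0 with edgeR, which also called 0 in either sex. Between female PP and male PP mice 0 of 9 were called, against 6.45% of all genes. Between female LL and male LL mice 2 of 9 were called, against 6.12% of all genes: Gys2, the liver glycogen synthase, was lower in female LL mice and Ppp1r3c, a phosphatase targeting subunit, was higher. In that comparison edgeR called 0 of 9. For the genotype by sex interaction, which tests whether the LL effect differs between the sexes and has no fold limit, 0 of 9 were called, against 0.119% of all genes. Only 5 of the 9 had an adjusted P for it. One of the 9 had an unadjusted p below 0.05 for the interaction by DESeq2 and 1 by edgeR. Between female PP and male PP mice 1 of the 9 had an unadjusted p below 0.05 by DESeq2 and 1 by edgeR, and edgeR called 0 of 9 there and for the interaction. The median log2 fold change of the 9 genes by LL genotype was 0.16 in males and -0.06 in females, beside 0.0001 and 0.01 for all genes tested.

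**Figure D1:**
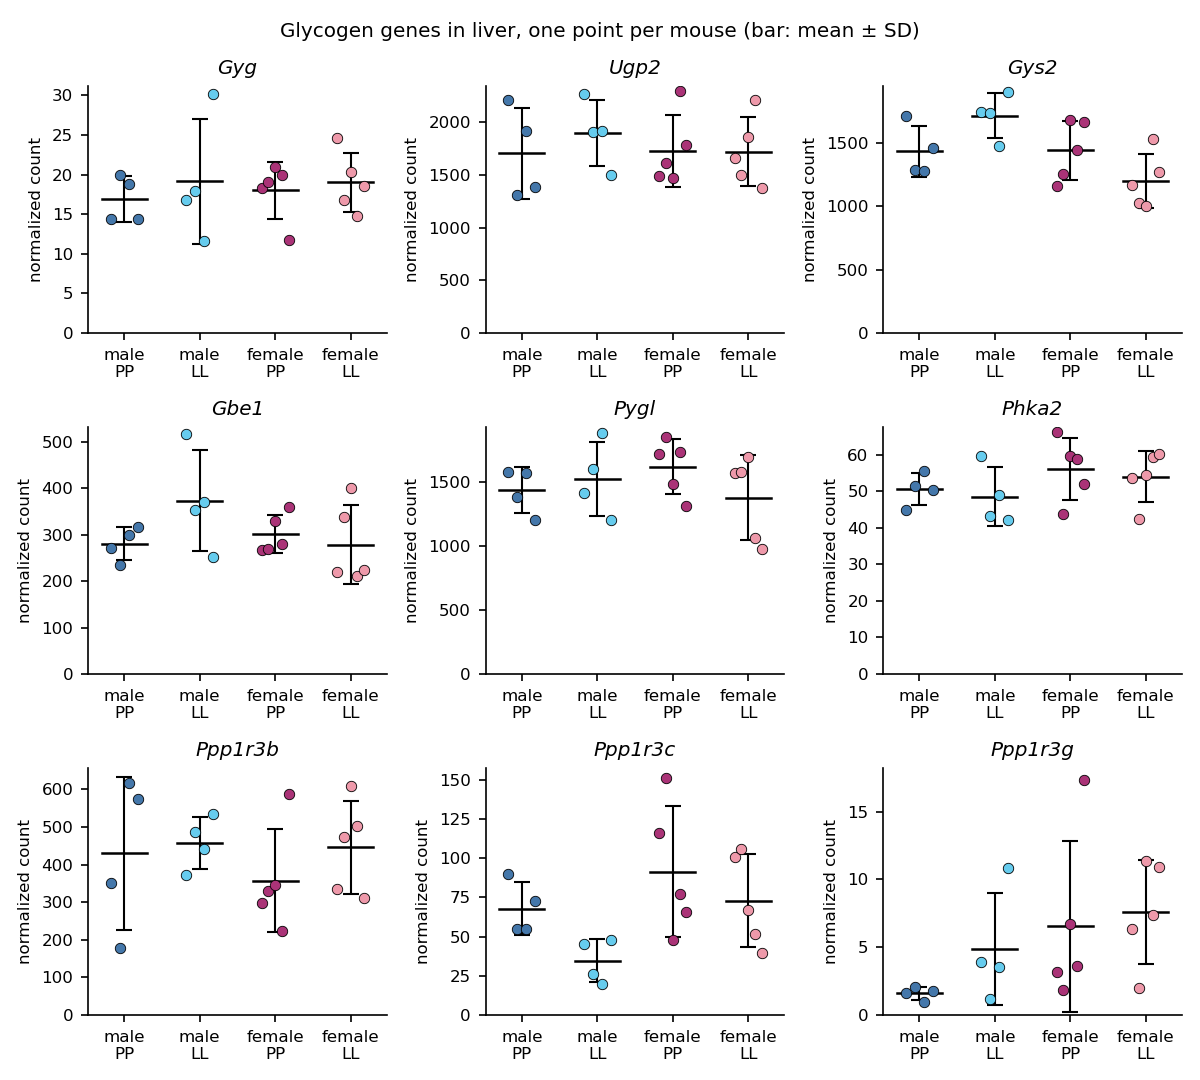
Normalized counts (vertical axis, from 0) of the 9 glycogen genes in each mouse, by sex and genotype (horizontal axis). Points are mice and bars are means ± SD. The 4 male LL mice sit below the 4 male PP mice for Ppp1r3c, and 4 of the 5 female LL mice sit below all 4 male LL mice for Gys2.

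**Figure D2:**
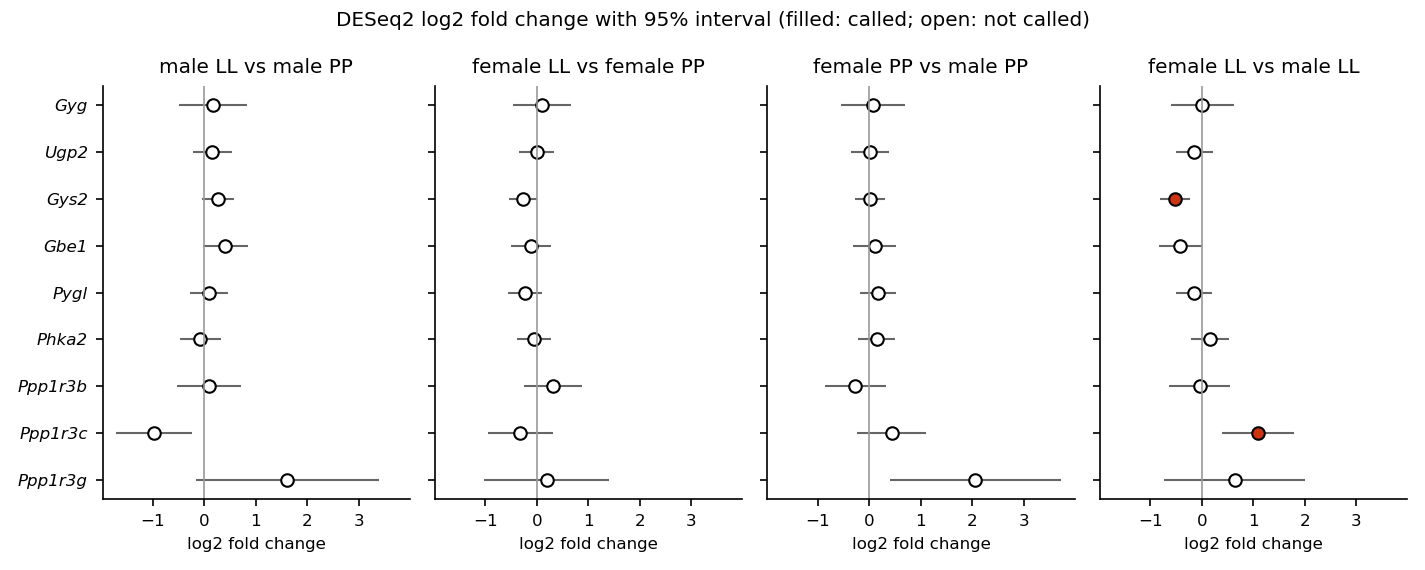
Log2 fold change (horizontal axis) of each glycogen gene by DESeq2 with its 95% interval, in the 4 comparisons between groups. Filled points are called genes, which are Gys2 and Ppp1r3c in the comparison of female LL with male LL mice, and the widest intervals are those of Ppp1r3g.

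The genes of synthesis come first. Gys2 (ENSMUSG00000030244, GRCm39 chromosome 6, 142368339 to 142418841) encodes the glycogen synthase of liver, which adds glucose to the growing chain. In males it had 1714, 1288, 1279 and 1459 normalized counts in PP mice 1 to 4 and 1747, 1735, 1475 and 1905 in LL mice 1 to 4. In females it had 1158, 1256, 1681, 1445 and 1667 in PP mice 1 to 5 and 1166, 1024, 1005, 1530 and 1270 in LL mice 1 to 5. The male LL mice were the highest group, with 3 of 4 above every male PP mouse, and the female LL mice the lowest, with 2 of 5 below every female PP mouse. All groups overlapped. On the log2 scale the LL effect in males was 0.26 ± 0.16 (SE; adjusted P = 0.558 by DESeq2), and that in females -0.27 ± 0.14 (adjusted P = 0.357). The 95% interval ran from -0.05 to 0.57 in males and from -0.54 to 0.01 in females. The difference between the sexes in the LL effect was -0.52 ± 0.21 (DESeq2 adjusted P = 0.339, unadjusted p = 0.0133).

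Female LL mice had 1199 ± 214 (SD, n = 5) and male LL mice 1715 ± 178 (SD, n = 4) normalized counts of Gys2, and this difference was called. On the log2 scale this was -0.52 ± 0.15 (SE; adjusted P = 0.0137 by DESeq2), a fold of 0.699 that lies just inside the limit of 0.7. Only the highest female LL mouse, mouse 4 with 1530 counts, came above the lowest male LL mouse, and the other 4 were below all male LL mice. The PP mice of both sexes were at nearly one level, 1441 ± 236 in females and 1435 ± 203 in males (log2 fold change 0.01 ± 0.15, DESeq2 adjusted P = 0.993). The call was kept in 9 of 19 alternative settings. In 18 of the 19 the log2 fold change stayed between -0.62 and -0.46, and with edgeR the adjusted P was 0.0501. It turned to 0.46 ± 0.40 (DESeq2 adjusted P = 0.616) when average transcript length entered as an offset, and back to -0.51 ± 0.15 when that length was taken only from transcripts of at least 1000 bases (DESeq2 adjusted P = 0.0213, fold just outside the limit).

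The offset of Gys2 turned on 1 short transcript. Gys2-202, of 314 bases, shorter than the fragments of most libraries, held a small share of the reads, while the full-length Gys2-201, of 2657 bases, held 92.0% of the estimated counts on average and from 87.6% to 97.1% in single mice. On the TPM scale, which divides by effective length, the same Gys2-201 held 36.0% on average and from 16.1% to 68.4%. Levels of the glycogen genes are therefore given below per kilobase of the leading transcript and not as summed TPM.

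Gbe1 (ENSMUSG00000022707, chromosome 16, 70110715 to 70366609) encodes the branching enzyme that makes the branch points of glycogen. It had 272, 234, 299.9 and 316 normalized counts in male PP mice 1 to 4 and 516, 352, 371 and 253 in male LL mice 1 to 4. In females it had 267, 270.0, 329, 281 and 359 in PP mice 1 to 5 and 219, 338, 401, 211 and 224 in LL mice 1 to 5. Of the 4 male LL mice 3 were above every male PP mouse and mouse 4 was within their range, while 3 female LL mice were below the female PP range, mouse 2 was within it and mouse 3 above it. The log2 LL effect in males was 0.41 ± 0.22 (SE; adjusted P = 0.485 by DESeq2, 95% interval -0.03 to 0.85), and that in females -0.11 ± 0.20 (adjusted P = 0.850). Female LL against male LL mice gave -0.42 ± 0.21 (DESeq2 adjusted P = 0.249), with an unadjusted p of 0.0497.

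Ugp2 (ENSMUSG00000001891, chromosome 11, 21270384 to 21321276) encodes UDP-glucose pyrophosphorylase, which makes the UDP-glucose that glycogen synthase uses. It ranged from 1315 to 2211 normalized counts in male PP, from 1499 to 2269 in male LL, from 1468 to 2295 in female PP and from 1379 to 2209 in female LL mice. These ranges covered each other almost fully. The log2 fold changes of Ugp2 were 0.16 ± 0.20 for LL males and -0.01 ± 0.18 for LL females (SE), and the 95% interval of the LL effect ran from -0.23 to 0.54 in males and from -0.35 to 0.34 in females. As 22.1% of the 31-base words of its transcripts also occur in other genes, 16.8% in Vps54, part of its count is uncertain.

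Gyg (ENSMUSG00000019528, named Gyg1 in the annotation, chromosome 3, 20158406 to 20209481) encodes glycogenin, the protein that primes a new glycogen particle. It was low, with 11.6 to 30.2 normalized counts over all 18 mice. Its mean was 16.9 ± 2.90 (SD) for male PP, 19.2 ± 7.89 for male LL, 18.0 ± 3.62 for female PP and 19.0 ± 3.73 for female LL mice. At this depth the 95% interval of the LL effect reached from 0.708-fold to 1.77-fold in males and from 0.728-fold to 1.58-fold in females. Changes of any size within these bounds remain compatible with the counts.

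The breakdown genes were Pygl and Phka2. Pygl (ENSMUSG00000021069, chromosome 12, 70237585 to 70278262) encodes the liver glycogen phosphorylase, which releases glucose 1-phosphate from glycogen. It had 1579, 1385, 1573 and 1204 normalized counts in male PP mice 1 to 4 and 1411, 1605, 1885 and 1200.2 in male LL mice 1 to 4. In females it had 1718, 1848, 1481, 1734 and 1316 in PP mice 1 to 5 and 1574, 1582, 1698, 1060.0 and 978 in LL mice 1 to 5. The female LL mice split into 3 near the female PP level and 2, mice 4 and 5, that were the lowest of all 18 mice. The log2 LL effect in males was 0.09 ± 0.19 (SE; adjusted P = 0.945 by DESeq2, 95% interval -0.28 to 0.45), and that in females -0.23 ± 0.17 (adjusted P = 0.538, 95% interval -0.56 to 0.09).

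Phka2 (ENSMUSG00000031295, chromosome X, 159285131 to 159381876) encodes the liver form of the alpha subunit of phosphorylase kinase, the enzyme that switches phosphorylase on. Its group means lay between 48.5 ± 8.02 normalized counts in male LL and 56.1 ± 8.59 in female PP mice (SD), and every mouse was between 42.1 and 66.3. The LL effect was -0.08 ± 0.20 in males and -0.06 ± 0.17 in females (SE, log2), without an adjusted P in males and with DESeq2 adjusted P = 0.912 in females. An adjusted P is left empty where the independent filtering of DESeq2 sets a low gene aside.

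The third set were the subunits that bring protein phosphatase 1 to glycogen, where it switches synthase on and phosphorylase off. Ppp1r3c (ENSMUSG00000067279, chromosome 19, 36708523 to 36714070) encodes the subunit known as PTG. In males it had 89.6, 54.6, 54.5 and 72.9 normalized counts in PP mice 1 to 4 and 45.4, 26.4, 19.6 and 47.5 in LL mice 1 to 4. In females it had 116, 151, 47.8, 77.0 and 65.9 in PP mice 1 to 5 and 101, 106, 66.7, 51.8 and 39.4 in LL mice 1 to 5. All 4 male LL mice were below all 4 male PP mice, the only member and comparison in which groups did not overlap, while the female groups covered each other. The share of all genes tested whose groups do not overlap is not given here, so this separation has no background beside it. The male LL effect was -0.97 ± 0.38 (SE, log2; DESeq2 unadjusted p = 0.0100), with a 95% interval from 0.306-fold to 0.852-fold. Independent filtering left it without an adjusted P, which was 0.423 when that step was left out, so it did not pass the test. The adjusted P was 0.513 with edgeR, and in the alternatives that gave one it ran from 0.242 to 0.704. In females the LL effect was -0.32 ± 0.32 (DESeq2 adjusted P = 0.687), and the genotype by sex interaction was 0.65 ± 0.49 (unadjusted p = 0.190, no adjusted P).

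Female LL mice had 72.9 ± 29.5 normalized counts of Ppp1r3c (SD, n = 5) against 34.7 ± 13.8 in male LL mice (SD, n = 4), and this difference was called. On the log2 scale this was 1.08 ± 0.36 (SE; adjusted P = 0.0378 by DESeq2), with 4 of 5 female LL mice above every male LL mouse and mouse 5 within the male range. Between female PP and male PP mice it was 0.44 ± 0.34 (DESeq2 adjusted P = 0.592). Over 19 alternative settings the log2 fold change lay between 0.85 and 1.28 and the adjusted P between 0.0035 and 0.147, and the call was kept in 9. With edgeR the adjusted P was 0.0948, and with age as a term 0.0731. Without male LL mouse 3, the lowest of all mice, it was 0.147.

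**Figure D3:**
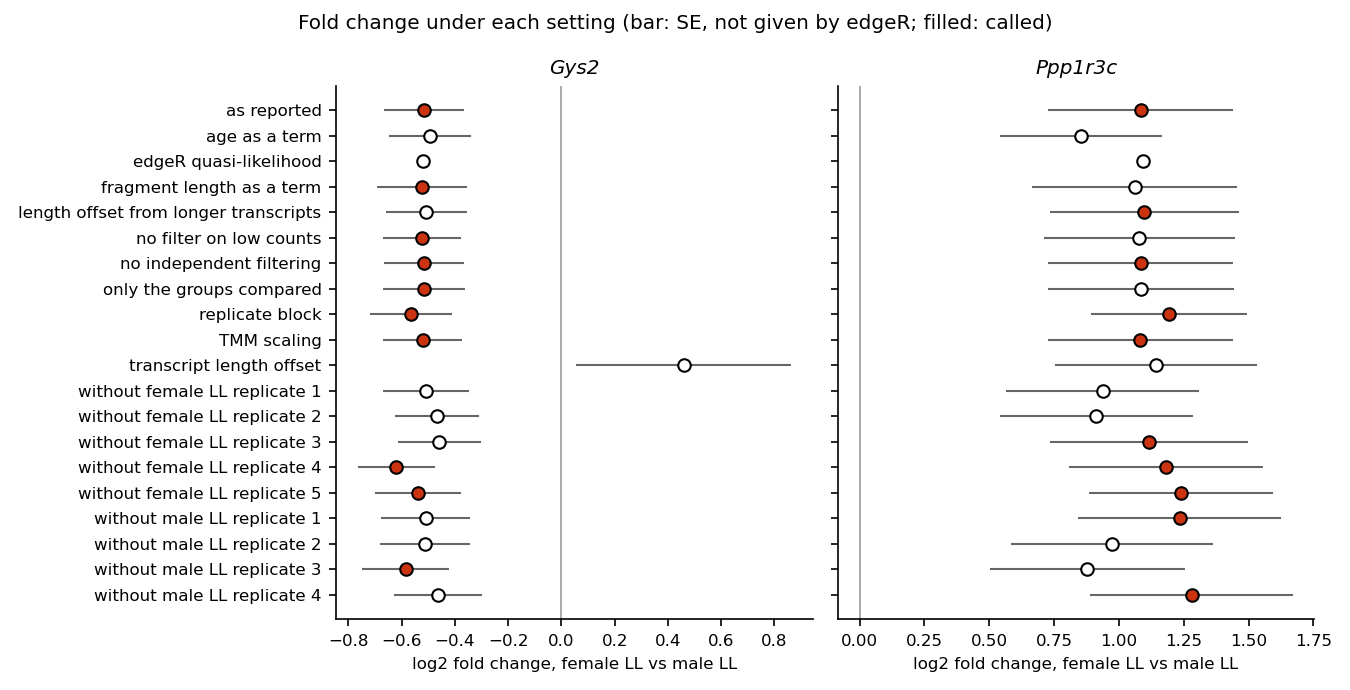
Log2 fold change of Gys2 and Ppp1r3c between female LL and male LL mice (horizontal axis, bars are SE) as reported and under each of 19 alternative settings (rows). Filled points are settings in which the gene was called, 9 of 19 for either gene, and only the transcript length offset moved Gys2 to the right of 0.

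Ppp1r3g (ENSMUSG00000050423, chromosome 13, 36142822 to 36154371) encodes another targeting subunit. It was near the limit of detection, with 1.60, 2.10, 0.940 and 1.80 normalized counts in male PP mice 1 to 4 and 3.89, 1.2, 3.57 and 10.8 in male LL mice 1 to 4. In females it had 3.19, 1.82, 6.71, 3.62 and 17.4 in PP mice 1 to 5 and 6.37, 1.98, 11.4, 7.40 and 10.9 in LL mice 1 to 5. The male PP mice were the lowest group, and 4 of 5 female PP and 3 of 4 male LL mice were above all of them. The log2 fold change of female PP against male PP mice was 2.06 ± 0.85 (SE; DESeq2 adjusted P = 0.133, unadjusted p = 0.0149), and that of male LL against male PP mice 1.61 ± 0.90 (unadjusted p = 0.0742, no adjusted P). Neither passed the test, although with age as a term the first was 2.59 ± 0.78 and called (adjusted P = 0.0180 by DESeq2). Both rest on male PP libraries with 1 or 2 raw counts. A single library held 10 or more raw counts in male LL and in female PP mice, and 2 did in female LL mice.

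Ppp1r3b (ENSMUSG00000046794, chromosome 8, 35842874 to 35856680) encodes the main targeting subunit of liver, GL. It varied widely inside the PP groups, with 352, 179, 617 and 574 normalized counts in male PP mice 1 to 4 and 299, 329, 346, 224 and 589 in female PP mice 1 to 5. Male LL mice 1 to 4 had 372, 486, 441 and 536, and female LL mice 1 to 5 had 335, 472, 609, 503 and 312. Every male LL mouse lay inside the male PP range. The log2 LL effect in males was 0.09 ± 0.32 (SE; adjusted P = 0.980 by DESeq2), and that in females 0.32 ± 0.29 (adjusted P = 0.643, 95% interval -0.24 to 0.88).

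The promoters of Ppp1r3c and Ppp1r3g are shown because these genes had the largest fold changes of the 9. They are taken from RefSeq (GRCm38.p6, sense strand, 250 bases before to 50 after the start), 5′ to 3′. Capitals mark the motifs found in a search of both strands for CACGTG (the E-box of basic helix-loop-helix factors), TGACG (the core of a cyclic AMP response element) and TTCNNNGAA (the STAT motif).
Ppp1r3c, chr19:36736555-36736854, minus strand: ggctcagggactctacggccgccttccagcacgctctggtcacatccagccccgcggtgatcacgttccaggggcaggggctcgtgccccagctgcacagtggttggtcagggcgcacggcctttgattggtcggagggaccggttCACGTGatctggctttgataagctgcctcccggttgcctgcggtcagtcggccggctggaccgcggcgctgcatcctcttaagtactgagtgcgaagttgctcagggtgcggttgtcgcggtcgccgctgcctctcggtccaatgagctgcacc
Ppp1r3g, chr13:35967656-35967955, plus strand: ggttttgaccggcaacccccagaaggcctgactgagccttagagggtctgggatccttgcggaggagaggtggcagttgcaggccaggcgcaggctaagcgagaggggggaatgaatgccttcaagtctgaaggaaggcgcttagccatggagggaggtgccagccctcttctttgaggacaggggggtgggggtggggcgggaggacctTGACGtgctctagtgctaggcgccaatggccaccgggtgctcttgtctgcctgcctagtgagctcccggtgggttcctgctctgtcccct
Ppp1r3c held 1 E-box, beginning 104 bases before the start, and Ppp1r3g 1 TGACG, beginning 40 bases before it. The E-box occurs in 7.15%, TGACG in 20.8% and the STAT motif in 8.30% of 32851 RefSeq promoters of this length. Of the other promoters searched, that of Gyg held 1 E-box and 1 TGACG and that of Pygl 1 TGACG. Those of Gbe1, Ugp2 and Phka2 held none of these motifs. Promoters of Gys2 and Ppp1r3b are not printed. Such matches describe the letters and are not evidence of binding.

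Levels of the 9 genes were ordered per kilobase of the leading transcript. The mean level over all 18 mice was 862 ± 161 normalized counts per kilobase for Ugp2, 540 ± 101 for Gys2 and 528 ± 91.8 for Pygl (SD). It was 103 ± 25.7 for Gbe1 and 99.7 ± 31.7 for Ppp1r3b, followed by 25.1 ± 12.3 for Ppp1r3c. Phka2 had 13.3 ± 1.84, Gyg 10.8 ± 2.61 and Ppp1r3g 2.28 ± 1.95. The count of the whole gene was divided by the length of its leading transcript, which held only 61.0% of the counts of Ugp2 on average. With part of its count also uncertain, the level of Ugp2 and its place in the order are uncertain. Of neighbours in this order, the ranges over mice overlapped for all pairs but Pygl and Gbe1. Gys2 was above Pygl in 9 of 18 mice and Gbe1 above Ppp1r3b in 11 of 18, so neither pair had a settled order. Among the targeting subunits the order Ppp1r3b above Ppp1r3c held in all 18 mice.

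**Figure D4:**
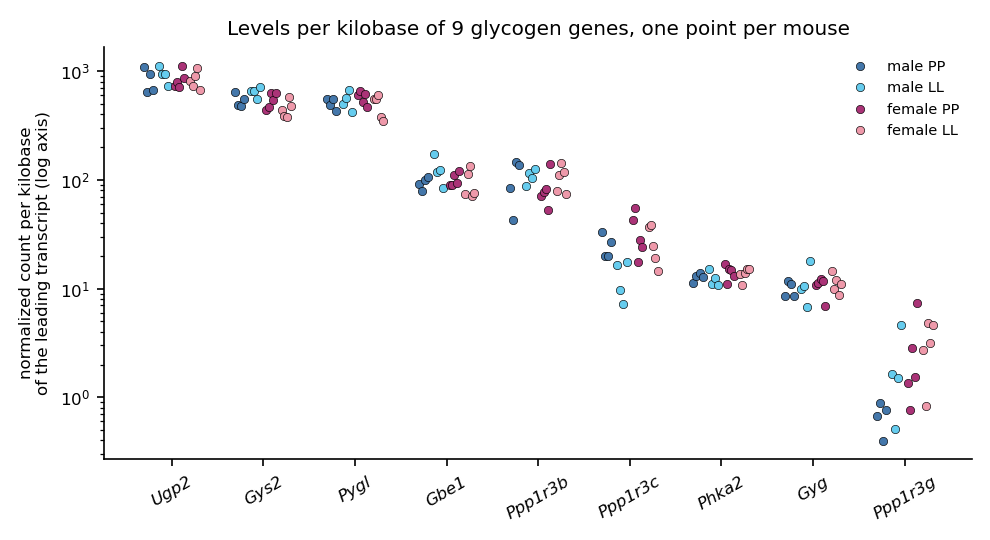
Normalized counts per kilobase of the leading transcript (vertical log axis) of the 9 glycogen genes in order of their mean. Each point is a mouse, coloured by sex and genotype. Gys2 and Pygl share 1 level near 500 per kilobase, and Ppp1r3g lies below 10 in every mouse.

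Transcript use was compared because the files are per transcript. The share of estimated counts on the leading transcript was tested by LL genotype in each sex for the 7 genes with counts on more than 1 transcript and a mean of at least 10 counts, 14 exact permutation tests in all, and 0 passed after Benjamini-Hochberg adjustment. For males this outcome says little. With groups of 4 the p cannot go below 0.0286, and the male tests by themselves could not have passed at that value. Ppp1r3g also had counts on more than 1 transcript but was too low to be tested, and all its counts in female PP mouse 5, its highest mouse, were on Ppp1r3g-203 and not on the leading Ppp1r3g-201. The lowest raw values were for Gys2-201 in females, at 89.2% ± 1.77 (SD) for 5 LL mice and 92.9% ± 1.72 for 5 PP mice (exact permutation p = 0.0238, adjusted 0.2), and for Phka2-203 in males. The share on Phka2-203 was 36.0% ± 32.6 (SD) for 4 LL males and 96.9% ± 6.13 for 4 PP males (exact permutation p = 0.0286, which is the lowest possible for groups of 4, adjusted 0.2). Shares on Phka2-203, Ppp1r3b-201 and Gyg1-203 ran from 0% to 100% between single mice.

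The balance of synthase to phosphorylase was taken as the ratio of Gys2 to Pygl within each mouse. On estimated counts it was 1.09, 0.930, 0.813 and 1.21 in male PP mice 1 to 4 and 1.24, 1.08, 0.783 and 1.59 in male LL mice 1 to 4. In females it was 0.674, 0.679, 1.14, 0.834 and 1.27 in PP mice 1 to 5 and 0.741, 0.648, 0.592, 1.44 and 1.299 in LL mice 1 to 5. The 2 female LL mice with the lowest Pygl, 4 and 5, had the highest ratios of their group. LL minus PP males gave a log2 difference of 0.19 (p = 0.543, exact permutation test), and LL minus PP females -0.01 (p = 0.960, same test). On TPM it was 0.04 in males and 0.52 in females (exact permutation p = 0.8286 and 0.238), where the short Gys2-202 enters. None of the 4 comparisons between groups passed on either scale.

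**Figure D5:**
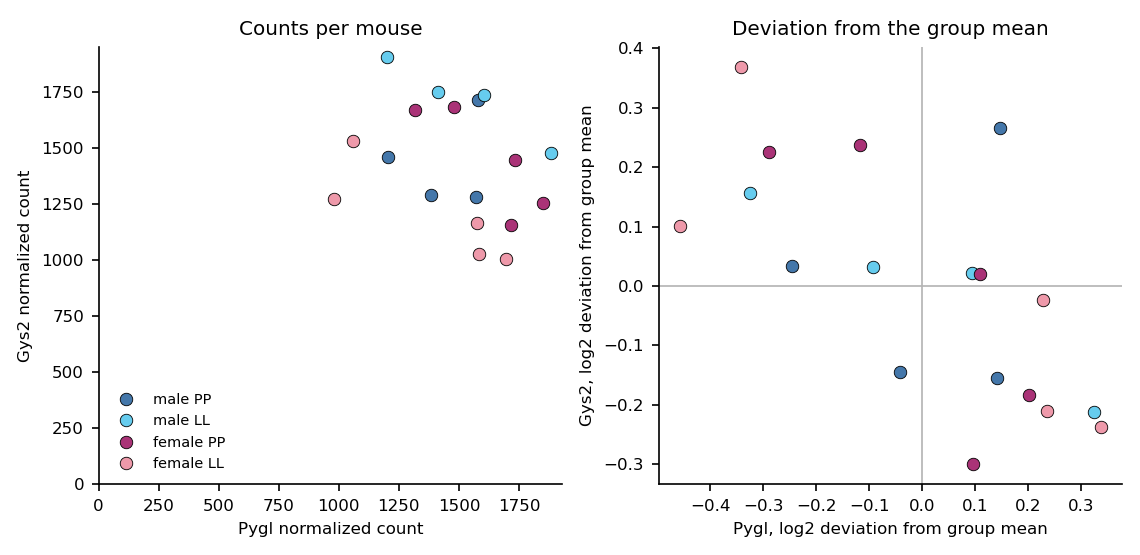
Gys2 against Pygl in 18 mice, as normalized counts (left, axes from 0) and as log2 deviations from the mean of the mouse's own group (right). Colours are sex and genotype, and in the right panel mice with low Pygl for their group tend to have high Gys2.

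The deviations of the genes from their group means were compared in pairs over the 18 mice, a comparison chosen after the values were seen. Of 28 pairs among the 8 genes with a mean of at least 10 counts, Gys2 and Pygl had the strongest relation, with a Pearson r of -0.68 (permutation p = 0.0055, Benjamini-Hochberg adjusted 0.154) and a Spearman rho of -0.73 (permutation p = 0.0028). Without the 2 mice farthest in Gys2 r was -0.65, and it was -0.42 in the 8 males and -0.80 in the 10 females. The relation did not pass the adjustment over the 28 pairs. All other pairs had an adjusted p of 0.709 or more.

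Age was examined in the same way, since the labels give it per mouse and it is not balanced between the groups. In a DESeq2 fit with the 4 groups as levels and age in weeks as a term, 0 of the 9 glycogen genes passed an adjusted P of 0.05, where 0.192% of all genes tested did. Of the 9 genes 4 had an unadjusted p below 0.05 by DESeq2 and 4 by edgeR, which called 0, beside 582 and 657 of 10938 genes. The change per week on the log2 scale was -0.19 ± 0.07 for Ppp1r3c (SE; DESeq2 adjusted P = 0.482, unadjusted p = 0.0038) and 0.47 ± 0.15 for Ppp1r3g (adjusted P = 0.362, unadjusted p = 0.0017). It was -0.08 ± 0.04 for Pygl (adjusted P = 0.848) and 0.14 ± 0.06 for Ppp1r3b (adjusted P = 0.890). For Ppp1r3c the slope kept its sign and an unadjusted p below 0.05 without any single library, from -0.22 to -0.16. Male LL mice, the group lowest in Ppp1r3c, were all 13 or 14 weeks old. Male PP mice 3 and 4, both 14 weeks old by the labels, had 54.5 and 72.9 normalized counts, above every male LL mouse (19.6 to 47.5). Age as a cause of the low level in male LL mice was not tested. With age as a term the log2 fold change of Ppp1r3c was -0.77 for LL males against PP males (adjusted P = 0.547 by DESeq2) and 0.85 for female LL against male LL mice (adjusted P = 0.0731).

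The other genes of the pathway were taken from a list of 28, of which 20 were expressed enough to be tested. The list held, among others, the muscle and brain forms of synthase and phosphorylase, phosphorylase kinase subunits, phosphatase catalytic and targeting subunits, synthase kinases, and genes of glucose entry and release. In males 0 of 20 were called by LL genotype by DESeq2 or edgeR, and 1 had an unadjusted p below 0.05 by DESeq2. That gene was Ppp1cb, the beta catalytic subunit of protein phosphatase 1, at 0.31 ± 0.13 on the log2 scale (SE; adjusted P = 0.318 by DESeq2). In females 1 of 20 was called higher and 0 lower, where 0.658% of all genes tested were called. Ppp1cc, the gamma catalytic subunit of protein phosphatase 1, averaged 269 ± 22.4 normalized counts (SD) over 5 female LL and 182 ± 28.8 over 5 female PP mice, and every female LL mouse, from 248 to 302, was above every female PP mouse, from 153 to 218. This was 0.57 ± 0.14 on the log2 scale (SE; adjusted P = 0.0126 by DESeq2). It was called in 12 of 20 alternative settings, and not with edgeR (adjusted P = 0.167), with the transcript length offset (adjusted P = 0.594 by DESeq2) or with fragment length as a term (log2 fold change 0.40, adjusted P = 0.499 by DESeq2). The call was also lost without female LL mouse 1 or 4 or female PP mouse 1, 3 or 5, with an adjusted P from 0.0543 to 0.109 by DESeq2. As 59.5% of its 31-base words also occur in Ppp1ccb, its count is uncertain. Between female LL and male LL mice 1 of 20 was called lower and 0 higher, where 6.12% of all genes tested were called. The share called in the list was thus no higher than that of all genes. Stbd1, a glycogen-binding protein that tethers glycogen to membranes, had 174 ± 31.3 normalized counts in female LL (SD, n = 5) and 292 ± 87.4 in male LL mice (SD, n = 4), giving -0.75 ± 0.22 on the log2 scale (SE; adjusted P = 0.0176 by DESeq2) and a call in 14 of 19 alternative settings. The call was lost without male LL mouse 4 (-0.53, adjusted P = 0.140 by DESeq2), without female LL mouse 5 (adjusted P = 0.0637), with the transcript length offset (adjusted P = 0.0666), with fragment length as a term (adjusted P = 0.155) and with edgeR (adjusted P = 0.0525). Every female LL mouse, from 139 to 213, was below every male LL mouse, from 218 to 417. For this separation and that of Ppp1cc, too, the share of all genes without overlap is not given. Between female PP and male PP mice and for the interaction 0 of 20 were called by DESeq2 or edgeR, with 1 and 2 genes at an unadjusted p below 0.05 by DESeq2. The smallest unadjusted p for the interaction was that of Ppp1cc, 0.0092, at 0.56 ± 0.21 on the log2 scale (SE), without an adjusted P.

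The fed or fasted state was read on 7 genes: Srebf1, Fasn, Pklr, Pck1, Igfbp1, Angptl4 and Ppargc1a. Of these 0 were called by LL genotype in either sex. One of them, Fasn, fatty acid synthase, was called higher in females in both PP mice (log2 fold change 1.88 ± 0.20, DESeq2 adjusted P = 1.37e-17) and LL mice (1.24 ± 0.20, DESeq2 adjusted P = 2.01e-07). Some varied widely within a group. Pck1 ran from 4757 to 13740 normalized counts and Igfbp1 from 12.7 to 253 in female PP mice. Srebf1 ran from 137 to 494 in male LL mice. With 4 or 5 mice per group the absence of calls does not show that the feeding state was equal. Of 26 cell type markers 17 were tested. None was called by LL genotype in males or females. The nearest was the hepatocyte marker Cps1 in females, at -0.50 ± 0.13 on the log2 scale (SE; adjusted P = 0.0284 by DESeq2), whose fold of 0.707 lay just outside the limit. The other hepatocyte markers did not all move with it, at -0.24 for Alb, -0.03 for Apoa1, 0.12 for Ttr and 0.26 for Glul in females. An unadjusted p below 0.05 by DESeq2 was reached by 7 of the 17 in females and 4 in males, beside 1427 and 854 of 10938 genes. In females the log2 LL effect was 1.44 for Hba-a1, 1.08 for Hbb-bs and 0.35 for Alas2, of red blood cells. It was -0.55 for Pecam1, -0.40 for Stab2 and -0.64 for Kdr, of endothelium. The part of blood or cell content in the LL effects was not tested. By sex, 4 of the 17 markers were called higher and 1 lower in female PP against male PP mice, where 6.45% of all genes were called. In female LL against male LL mice 1 was called lower, where 6.12% of all genes were called. The marker Alb was called for the interaction, 1 of 17 against 0.119% of all genes tested. Between female LL and male LL mice the summed hepatocyte markers ran from 584510 to 707356 normalized counts in female LL and from 458769 to 553430 in male LL mice, and the 3 red blood cell markers from 881 to 4939 and from 871 to 3313. The hepatocyte sum is mostly Alb, which averaged 566181 of it in female LL mice, and its members did not move together in that comparison, with log2 fold changes of 0.33 for Alb, 0.34 for Ttr, 0.34 for Glul, -0.23 for Apoa1 and -0.24 for Cps1, none of them called. Alb missed the call only by its fold of 1.26, below the limit of 1.3, as its adjusted P was 0.0247 by DESeq2. In the red blood cell sum Alas2 was called lower, at -2.09 on the log2 scale (adjusted P = 8.04e-13 by DESeq2), while Hba-a1 was at 0.54 and Hbb-bs at 0.71, neither called. Kupffer and other leukocyte markers summed to 265 to 395 in female LL and 194 to 304 in male LL mice, endothelial markers to 114 to 181 and 96.1 to 128, and stellate markers to 311 to 721 and 400 to 660.0. Their part in the calls of Gys2, Ppp1r3c and Stbd1 was not tested, and in whole liver fewer cells of a type and less RNA per cell cannot be told apart.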

How the data were processed

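RNA of 18 mouse livers was sequenced by the authors after a limit on RNA integrity, and untrimmed reads were checked with FastQC. Assignment by the authors was to GENCODE release M26 transcripts (GRCm39), with Salmon 1.4.0 as the submitters' processing notes give it. The deposited tables hold, for 139225 transcripts, the estimated counts, which were not scaled between libraries and of which 90.8% of values above 0 were not whole, and TPM, which the authors' tool scaled to an equal total per library. Sequencing layout and strand are not given in the sources used here.

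The transcripts were joined to genes through GENCODE M39, which held 137570 of them, and the other 1655 were left out. Estimated counts were summed per gene and rounded. Libraries were grouped by sex and genotype. All 18 libraries entered 1 fit in DESeq2 1.42.0 (R 4.3.3) with median-of-ratios size factors and Wald tests. Benjamini-Hochberg adjustment was over the genes kept by default independent filtering, and the call limits were those of the study's methods. The fit was tested on simulated data. Fragment length is the median difference between length and effective length over transcripts of at least 3000 bases. Single values were compared by two-sided exact permutation tests of mean differences, and pair relations with 100000 permutations within groups. Nothing in the labels says more of the mice than 1 library each, so p-values measure the spread between these libraries. Within groups, pairs of libraries gave chi-square values of 11.1 to 93.1 per degree of freedom, so none was a duplicate. A gene with few counts carries a wide counting error, and intervals cover the spread between mice as DESeq2 models it.

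All 9 genes were named in every comparison, other pathway genes where called or else the one with the smallest p, and state and marker genes by counts. Some results that this rule would name are not reported here. The genes and lists were chosen with earlier results of these data known. Alternatives were edgeR 4.0.16, TMM scaling, no filter on low counts, no independent filtering, 2 transcript length offsets, fragment length or age as a term, a replicate block, only the groups compared, and leaving out each library. The offset from longer transcripts, the ratio from leading transcripts, the pair relations and the age slopes were chosen after seeing the data.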

Additional observations from a re-analysis of the deposited data

Results flagged for a closer look

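One value lay far from its group. Female PP mouse 5 had 11.8 normalized counts of Gyg, the lowest of the 5 female PP mice, and the next lowest had 18.4, a gap of 0.715 of the range of the group. It was the only such value among 36 combinations of gene and group examined, where chance gives about 1 in 20, and without this mouse the female LL effect on Gyg was -0.03 on the log2 scale.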

How the results depend on the processing

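Of the glycogen genes called between female LL and male LL mice, 0 remained with age as a term, with edgeR and with the transcript length offset. With fragment length as a term, with no filter on low counts and with only the groups compared 1 gene was called, Gys2, and with the added offset from longer transcripts 1, Ppp1r3c. Leaving out single libraries gave 0 to 2 called genes, with 0 without female LL mouse 1 or 2 or male LL mouse 2, 1 (Ppp1r3c) without male LL mouse 1 or 4, and 1 (Gys2) without male LL mouse 3. Without female LL mouse 3 the 2 were Ppp1r3c and Gbe1. With age as a term 1 gene, Ppp1r3g, was called between female PP and male PP mice. In the pathway list, the number called by LL genotype in females was 0 with edgeR, with fragment length as a term and with the transcript length offset, that between female PP and male PP mice was 1 with age or fragment length as a term and with the transcript length offset, and that between female LL and male LL mice was 0 with edgeR and with fragment length. Single libraries whose removal ended the calls of Ppp1cc and Stbd1 are named beside those results. For the ratio of Gys2 to Pygl, the log2 difference by LL genotype in females was 0.52 on TPM, -0.0083 on estimated counts and -0.08 on TPM of the leading transcripts, and that between female LL and male LL mice 0.32, -0.365 and -0.4142. Without single libraries it ran from -0.1757 to 0.2222 for LL males and from -0.28 to 0.0293 for female PP against male PP mice. The TPM values include the short Gys2-202, and the cause of the other changes was not tested.

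The log2 fold changes that changed sign were of genes not called, except Gys2 between female LL and male LL mice. With the transcript length offset, those by LL genotype in males were -0.3207 for Gys2, 0.0251 for Phka2, -0.2024 for Pygl and -0.0792 for Ugp2, and in females 0.2926 for Gbe1 and 0.2691 for Ugp2. Between female PP and male PP mice they were -0.4041 for Gbe1 and -0.6223 for Ugp2, and between female LL and male LL mice 0.4592 for Gys2, 0.0265 for Ppp1r3b and 0.1363 for Pygl. For the interaction they were 0.044 for Gbe1, 0.1932 for Gys2, -0.127 for Phka2 and 0.3483 for Ugp2. With age as a term they were -0.0078 for Ppp1r3b in males, -0.2081 for Ppp1r3g and 0.0045 for Ugp2 in females, -0.0197 for Gyg and 0.0886 for Ppp1r3b between female LL and male LL mice, and -0.0023 for Phka2 in the interaction. With fragment length they were -0.0693 for Ugp2 between PP mice, 0.0658 for Ppp1r3b between LL mice and 0.0099 for Gyg in the interaction, and with the offset from longer transcripts -0.0913 for Gyg between LL mice.

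Without single libraries the LL effect in males ran from -0.163 to 0.3676 for Gyg, from -0.168 to 0.3141 for Ppp1r3b and from -0.0284 to 0.187 for Pygl, and in females from -0.0274 to 0.1708 for Gyg, from -0.1345 to 0.014 for Phka2, from -0.0387 to 0.9875 for Ppp1r3g and from -0.1109 to 0.116 for Ugp2. Between PP mice it ran from -0.0064 to 0.2037 for Gyg, from -0.054 to 0.1013 for Gys2 and from -0.102 to 0.167 for Ugp2, between LL mice from -0.1923 to 0.3364 for Gyg and from -0.1766 to 0.0663 for Ppp1r3b, and for the interaction from -0.2653 to 0.2646 for Gyg and from -0.0569 to 0.118 for Phka2.

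Same-numbered mice did not deviate together (correlations from -0.276 to 0.193), which showed no pairing by number but cannot exclude one. Within each group the numbers follow the ages on the labels, so the replicate block also carries part of age. With the replicate block 2 genes were called between female LL and male LL mice, Gys2 (-0.56) and Ppp1r3c (1.19), and Gys2 between PP mice was -0.0297. Depth limits Ppp1r3g and Gyg most, with 1 to 25 and 9 to 28 raw counts per library.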

Other observations

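For 8 of the glycogen genes the other tested gene with the most similar deviations from the group means over the 18 mice was found, as a description without a test. These genes share libraries and depth. Pygl ran most closely with Me1, malic enzyme (Pearson r = 0.934), Gbe1 with Nudt12 (0.901) and Ugp2 with Cyb5a, cytochrome b5 (0.861). Gys2 ran with Phka1 (0.815), the muscle form of the phosphorylase kinase alpha subunit, which averaged 18.7 normalized counts. Ppp1r3g ran with Chd7 (0.865), Gyg with Tra2b (0.853), Phka2 with Malat1 (0.816) and Ppp1r3c with Haus7 (0.809). The deviations of Ppp1r3g and Chd7 also ran with the fragment length of the library, with r of 0.448 and 0.595, as did those of Gyg and Tra2b, with r of 0.372 and 0.460, those of Ugp2 and Cyb5a ran against it, with r of -0.476 and -0.416, and those of Pygl and Me1 did so weakly, with r of -0.195 and -0.162.

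The spread between libraries of one group differed between the genes. It includes counting error, which is wide for genes with few counts such as Ppp1r3g, Gyg and Phka2. That part was not separated from differences between mice, so the order is not one of variation between mice alone. Before the log2 step 1 was added to each normalized count. The SD of log2 normalized counts within groups was 0.2 for Phka2, 0.218 for Gys2, 0.272 for Pygl, 0.286 for Ugp2, 0.326 for Gbe1 and 0.350 for Gyg, and 0.524 for Ppp1r3b, 0.572 for Ppp1r3c and 0.858 for Ppp1r3g. This order of pooled values did not hold in every group, since in male LL mice Ppp1r3b (0.224) was below Gbe1 (0.420) and Gyg (0.540), and in male PP mice Ppp1r3c (0.344) and Ppp1r3g (0.290) were below Ugp2 (0.364). Ppp1r3b ranged from 179 to 617 normalized counts among the 4 male PP mice.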
